A study of Mus musculus with 4 samples.

Results

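The Wnt ligands, their Frizzled receptors and the secreted inhibitors that bind them or their co-receptors were followed across single-cell transcriptomes of mouse tumours carrying SMO-M2, which encodes an always-active Smoothened. Members were taken by gene symbol alone, as every symbol that starts with Wnt, Fzd or Sfrp and a digit, plus the Dkk symbols numbered 1 to 4. The rule found 38 of the 32286 features. These were 19 Wnt ligands, 10 Frizzled receptors, 8 secreted inhibitors and Fzd10os, a lincRNA on the strand opposite to Fzd10 that encodes no receptor. YSG tumours had the genotype fYap1;fSMO-M2;hGFAPcre, and the series text calls these animals rescued and sampled at end point. SG tumours had the genotype fSMO-M2;hGFAPcre, also at end point. The SMO-M2 allele and the Cre driver are therefore common to all groups, and the floxed Yap1 allele is what sets YSG apart by label. Cre was driven by a human GFAP promoter, which is active in neural progenitors that give rise to both neurons and glia, so recombination need not be limited to granule neuron progenitors. Each combination of genotype and sex was 1 library, and YSG males, SG males, YSG females and SG females are named below as YSGm, SGm, YSGf and SGf.

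Wnt proteins are lipid-modified secreted ligands that bind Frizzled receptors. With the co-receptors Lrp5 and Lrp6, they stabilise beta-catenin, which enters the nucleus with TCF and LEF factors and switches on targets such as Axin2. Without the co-receptors, some Wnt and Frizzled pairs act on cell polarity instead. Secreted frizzled-related proteins (Sfrp) carry a Frizzled-like domain and bind Wnt ligands outside the cell, while Dickkopf proteins (Dkk) such as Dkk1 bind the Lrp co-receptors. In the developing cerebellum, granule neuron progenitors divide in response to Sonic hedgehog, the pathway that SMO-M2 switches on, and Wnt genes are known there for their part in neuronal maturation and synapse formation.

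The kept barcodes numbered 7882 in YSGm, 8419 in SGm, 7193 in YSGf and 7656 in SGf, with medians between 5872.5 and 7419.5 unique molecular identifiers (UMIs) per barcode. Deposited totals lay between 58478914 and 86906706 UMIs per library. Yap1 gave 10 UMIs in YSGm, 266 in SGm, 3 in YSGf and 374 in SGf; a tag from the 3' end cannot tell whether the floxed exons were present. With 1 library per group there was no replicate error, no difference was tested, and genotype cannot be told apart from animal, litter or capture run. Levels are UMIs of a gene per 1000000 UMIs of the same barcodes (CPM), each UMI standing for 1 tagged transcript end and not scaled by gene length. Intervals are 95% and cover counting error only. In all, 87 barcode sequences occurred in more than 1 library, at most 0.274% of a library for any pair. Granule lineage markers summed to 1930, 1660, 2060 and 1720 CPM in YSGm, SGm, YSGf and SGf, and none of the 10 was at 0.

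The summed ligand and inhibitor transcripts were more abundant in YSG tumours of both sexes, each sum being carried by 1 gene, while the receptor transcripts had nearly the same total with a different make-up. Summed over all 19 genes, ligands reached 101 CPM in YSGm against 55.7 in SGm, and 115 CPM in YSGf against 63 in SGf. That sum was mostly Wnt4: without it the other 18 ligands came to 15.5 CPM in YSGm against 22.7 in SGm, lower in YSG, and to 27.8 CPM in YSGf against 24.5 in SGf. The 8 inhibitors reached 647 CPM in YSGm against 283 in SGm, and 522 CPM in YSGf against 252 in SGf. The inhibitor sum was mostly Sfrp1: without it the other 7 inhibitors came to 26.3, 17.9, 25.3 and 19.3 CPM in YSGm, SGm, YSGf and SGf. The 10 receptors came to 370 CPM in YSGm and 365 in SGm, and to 376 CPM in YSGf and 386 in SGf.

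Of the 38 members, 12 reached 5 CPM in at least 1 library, and these 12 carry the comparisons. They are the ligands Wnt3, Wnt4, Wnt5a and Wnt9a, the receptors Fzd1, Fzd2, Fzd3, Fzd4 and Fzd7, the inhibitors Sfrp1 and Sfrp2, and Fzd10os. Of the other 26, 19 stayed below 1 CPM in every library and 7 lay between 1 and 5 CPM, with Wnt2 the highest at 4.65 CPM in SGf. Wnt1 had 0 UMIs in all 4 libraries, which allows up to 0.0493, 0.041, 0.0515 and 0.0346 CPM in YSGm, SGm, YSGf and SGf, taking 3 counts as the limit. A member was counted as past 2-fold when its log2 ratio, with 1 CPM added to both sides, was 1 or more in size. By that rule 6 of the 12 were past 2-fold in males, beside 3.93% of all 10180 genes at 5 CPM or more. In females it was 5 of 12, beside 5.56% of 10379 genes. The 5 genes Wnt4, Wnt3, Sfrp1, Fzd1 and Wnt5a were past 2-fold the same way in both sexes, beside 2.68% of 10090 genes. Of these, Wnt3 reached 5 CPM only in YSG and Wnt5a only in SG, so their places in this count follow in part from the filter. The same holds in males for Wnt9a, which reached 5 CPM only in SGm. In males, 3 of the 12 were higher in YSG (background 1.56%) and 3 lower (background 2.37%); in females 3 were higher (background 3.11%) and 2 lower (background 2.45%). Across both sexes, 3 were higher (background 1.10%) and 2 lower (background 1.58%). The members were chosen with earlier results of these data known, so setting these counts beside the background is no test. The median log2 ratio of the 12 was 0.36 in males and 0.36 in females, against -0.01 and 0.00 over all genes measured.

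**Figure D1:**
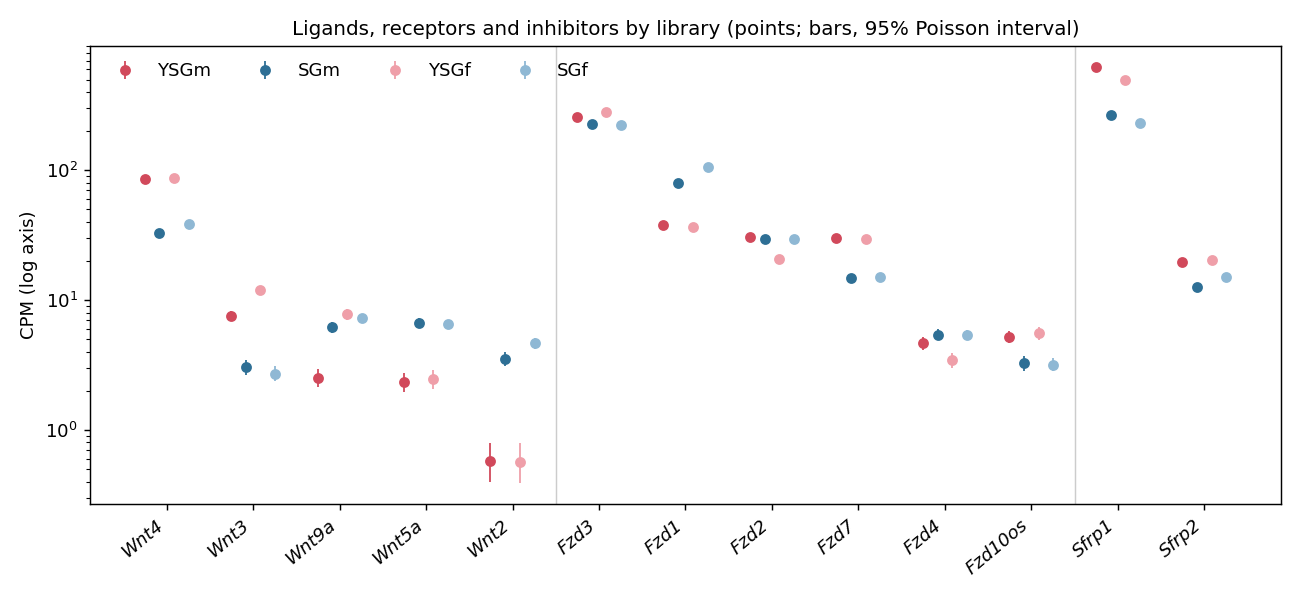
Level of each named member and of Wnt2 in the 4 libraries, in CPM on a log axis, with 95% Poisson intervals; vertical lines part ligands, receptors with Fzd10os, and inhibitors. Sfrp1 lies at 620 and 497 CPM in YSGm and YSGf against 266 and 232 in SGm and SGf, while Fzd1 lies the other way round at 37.8 and 36.3 CPM in YSG against 79.8 and 105 in SG.

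Among the ligands, Wnt4 was the most abundant in every library and was higher in YSG in both sexes. Wnt4, a ligand that acts through beta-catenin in some tissues and without it in others, gave 5222 UMIs (85.8 CPM) in YSGm, 2413 UMIs (33 CPM) in SGm, 5082 UMIs (87.2 CPM) in YSGf and 3341 UMIs (38.5 CPM) in SGf. Both YSG libraries lay above both SG libraries, and the 2 YSG values were nearly equal. The level was 2.60-fold higher in YSG in males (interval 2.48 to 2.73) and 2.26-fold higher in females (interval 2.17 to 2.37). The female log2 ratio of 1.16 was 0.91 with barcodes thinned to equal depth and 0.88 with each barcode weighed the same, under the 2-fold line in both. The gene lies on chr4:137277489-137299726, plus strand (GRCm38, GENCODE M21). Wnt4 made up 84.7% of all ligand UMIs in YSGm against 59.3% in SGm, and 75.8% in YSGf against 61.1% in SGf. The 10 barcodes with most of its UMIs held between 2.47% and 3.52% of the total. The top 5% of barcodes held 41.9% of its UMIs in YSGm, 54.2% in SGm, 43.3% in YSGf and 49.4% in SGf.

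Wnt3, a ligand of the beta-catenin branch, was also higher in YSG, more so in females. It gave 458 UMIs (7.52 CPM) in YSGm, 223 (3.05 CPM) in SGm, 693 (11.9 CPM) in YSGf and 235 (2.71 CPM) in SGf. Both YSG values exceeded both SG values, with YSGf the highest of the 4. The fold was 2.47 in males (interval 2.10 to 2.91) and 4.39 in females (interval 3.78 to 5.11), and these counting intervals do not overlap. The gene lies on chr11:103774150-103817957, plus strand.

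Wnt5a and Wnt2 ran the other way. Wnt5a, the ligand best known for signalling without beta-catenin through Ror receptors and cell polarity, gave 141 UMIs (2.32 CPM) in YSGm, 486 (6.64 CPM) in SGm, 143 (2.45 CPM) in YSGf and 565 (6.51 CPM) in SGf. The 2 YSG values and the 2 SG values formed pairs that did not overlap. The level in SG was 2.87-fold that in YSG in males (interval 2.37 to 3.49) and 2.65-fold in females (interval 2.21 to 3.21). Vascular and fibroblast markers ran the same way: they summed to 9.23 CPM in YSGm, 26.7 in SGm, 17 in YSGf and 25.9 in SGf, with 15 of 15 lower in YSG males and 13 of 15 in YSG females, and none at 0 in all libraries. So did choroid plexus and ependymal markers, at 6.47 CPM in YSGm, 25.5 in SGm, 4.32 in YSGf and 15.3 in SGf. Of these 8 markers, 6 were lower in YSG males and 7 in YSG females. No gate was built on them, so such barcodes are not among those left out below. The 23 barcodes gated as vascular or fibroblast in SGm held 36 of the 486 Wnt5a UMIs there, at 151 CPM. With the glial, vascular and leukocyte barcodes left out, Wnt5a was at 2.29, 5.97, 2.36 and 6.31 CPM in YSGm, SGm, YSGf and SGf, a YSG over SG fold of 0.383 in males and 0.374 in females. Wnt2 was below the level that names a gene and was picked after its values were seen. It gave 35 UMIs in YSGm, 256 in SGm, 33 in YSGf and 404 in SGf, so that SG was 6.09-fold above YSG in males (interval 4.27 to 8.93) and 8.22-fold in females (interval 5.76 to 12.1). Within the ligand UMIs, Wnt2 took 0.568% in YSGm against 6.29% in SGm, and 0.492% in YSGf against 7.39% in SGf.

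Wnt9a did not run the same way in both sexes. It had 2.51 CPM in YSGm against 6.17 CPM in SGm, and 7.75 CPM in YSGf against 7.23 CPM in SGf. YSGm stood apart as the low library, and the other 3 lay close together. The YSG over SG fold was 0.408 in males (interval 0.337 to 0.491) and 1.07 in females (interval 0.947 to 1.21). In males the log2 ratio of -1.03 was -0.95 with thinned barcodes and -0.99 with each barcode weighed the same. Wnt3a, a beta-catenin ligand whose gene also lies on chromosome 11, had 1 UMI in SGf and 0 in each of the other libraries.

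Fzd3 was the main receptor transcript, and its level varied little between libraries. Fzd3, a receptor needed for axon growth and guidance, gave 257 CPM in YSGm, 226 in SGm, 279 in YSGf and 224 in SGf, between 57.9% and 74.4% of all Frizzled UMIs. The fold was 1.14 in males (interval 1.11 to 1.16) and 1.25 in females (interval 1.22 to 1.27), below the 2-fold line in both. Fzd1 and Fzd7 differed between genotypes in opposite directions. Fzd1, a receptor that can pass on beta-catenin signals, gave 2303 UMIs (37.8 CPM) in YSGm, 5836 (79.8 CPM) in SGm, 2116 (36.3 CPM) in YSGf and 9106 (105 CPM) in SGf. The 2 YSG values were alike and both lay under both SG values. SG was 2.11-fold above YSG in males (interval 2.01 to 2.21) and 2.89-fold in females (interval 2.76 to 3.03). The male log2 ratio of -1.06 was -0.99 with thinned barcodes and -0.96 with each barcode weighed the same, just inside the 2-fold line. The gene lies on chr5:4753839-4758035, minus strand. Fzd7, a receptor linked to beta-catenin signals in stem and progenitor cells, gave 1825 UMIs (30.0 CPM) in YSGm, 1092 (14.9 CPM) in SGm, 1724 (29.6 CPM) in YSGf and 1301 (15 CPM) in SGf. Both YSG values lay above both SG values, with folds of 2.01 in males (interval 1.86 to 2.17) and 1.97 in females (interval 1.83 to 2.12). On the log2 scale with 1 CPM added, Fzd7 stood at 0.96 and 0.94, just under the 2-fold line. Fzd1 took 10.2% of the Frizzled UMIs in YSGm against 21.9% in SGm, and 9.66% in YSGf against 27.1% in SGf. Fzd7 took 8.11% in YSGm against 4.09% in SGm, and 7.87% in YSGf against 3.88% in SGf.

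The remaining named receptors differed less. Fzd2 had 30.7 CPM in YSGm against 29.5 in SGm, and 20.7 CPM in YSGf against 29.3 in SGf, so that YSGf was the low library. Fzd4, the receptor for Norrin in retinal and cerebellar vessels, had 4.63 CPM in YSGm against 5.41 in SGm, and 3.43 CPM in YSGf against 5.4 in SGf. Fzd10os had 5.21 CPM in YSGm against 3.25 in SGm, and 5.54 CPM in YSGf against 3.18 in SGf. Its neighbour Fzd10 lay between 3.07 and 4.09 CPM in all 4 libraries.

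Sfrp1 was the most abundant of all 38 members. It gave 37763 UMIs (620 CPM) in YSGm, 19428 (266 CPM) in SGm, 28980 (497 CPM) in YSGf and 20168 (232 CPM) in SGf. Both YSG libraries lay well above both SG libraries, with YSGm the highest. The fold was 2.34 in males (interval 2.30 to 2.38) and 2.14 in females (interval 2.10 to 2.18). With thinned barcodes the female log2 ratio lay just under the 2-fold line. The gene lies on chr8:23411502-23449632, plus strand. Sfrp2, a second soluble Wnt binder, had 19.8 CPM in YSGm against 12.6 in SGm, and 20.2 CPM in YSGf against 15.1 in SGf, with folds of 1.57 (interval 1.44 to 1.71) and 1.34 (interval 1.23 to 1.45). The Dickkopf genes were scarce: Dkk3 lay between 1.72 and 2.04 CPM, and Dkk1, Dkk2 and Dkk4 had at most 12 UMIs in any library.

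To give the share of barcodes with a UMI at equal depth, each barcode was thinned to 2000 UMIs and shallower barcodes (between 454 and 529 per library) were left out. In barcodes that were cycling, postmitotic or in no gate, Sfrp1 was then found in 66.6% in YSGm, 37.5% in SGm, 57.4% in YSGf and 34.9% in SGf (unthinned 91.2%, 72.9%, 87.2% and 73.1%). Leukocyte-gated barcodes, a type that should lack the gene, gave 5 of 16, 3 of 8, 6 of 22 and 2 of 6 with an Sfrp1 UMI after the same thinning, numbers too small to set a background. Their median depths, 5790.5, 8962, 7608 and 8072 UMIs, compare with 6118.5, 6444, 6995.5 and 7796 in the other barcodes. Without thinning, all leukocyte-gated barcodes pooled had Sfrp1 at 333, 287, 211 and 377 CPM in YSGm, SGm, YSGf and SGf. These levels rest on 49, 26, 42 and 20 UMIs. Cycling barcodes had 651, 276, 538 and 235 CPM, so in SG the leukocyte-gated level was not below the cycling one. The Sfrp1 shares carry no background correction. Wnt4 was found in 13.2% in YSGm against 5.6% in SGm, and in 11.8% in YSGf against 6.88% in SGf (unthinned 31.6%, 17.5%, 29.8% and 22.8%). Fzd1 was found in 6% in YSGm against 11.5% in SGm, and in 6.03% in YSGf against 15% in SGf (unthinned 19.6%, 32.8%, 20.8% and 44.2%). Leukocyte-gated barcodes with a UMI numbered 1, 0, 2 and 0 for Wnt4 and 1, 0, 1 and 0 for Fzd1 in the same order of libraries. Those counts are again too small to set a background: 0 of 8 in SGm allows a share of up to 36.9% by the exact interval.

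**Figure D2:**
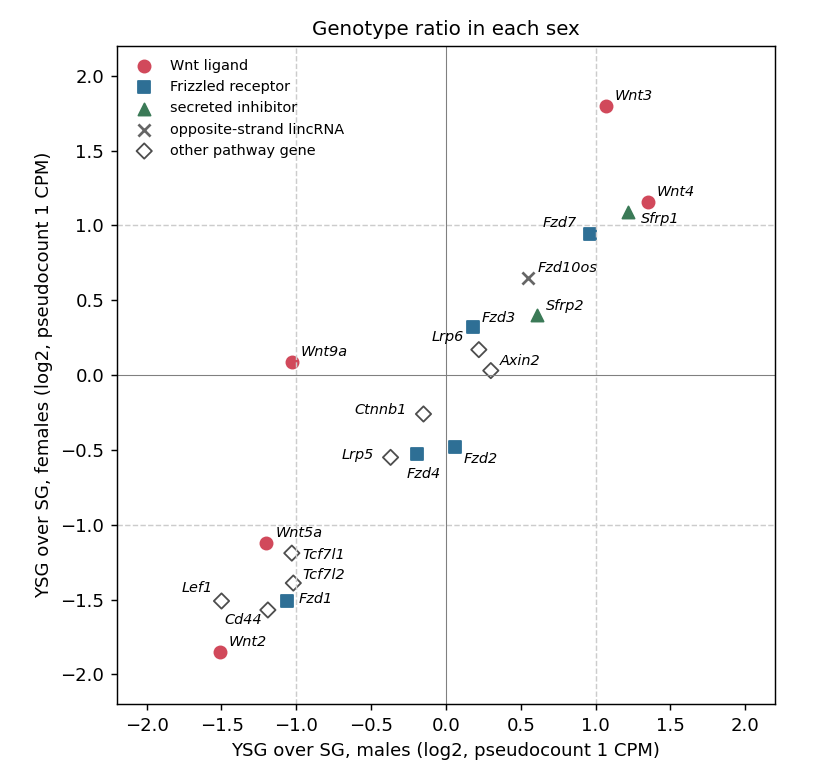
Log2 ratio of YSG over SG in males (horizontal) and in females (vertical), with 1 CPM added, for the 12 named members, Wnt2 and 8 other Wnt pathway genes; dashed lines mark 2-fold. Wnt3, Wnt4 and Sfrp1 lie past 2-fold at the upper right, Fzd1, Wnt5a, Wnt2, Tcf7l1, Tcf7l2, Cd44 and Lef1 at the lower left, and Wnt9a is past the line in males, at -1.03 beside 0.09 in females.

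The stretch just before the RefSeq start of Wnt4, Wnt3 and Fzd1 is printed because these are ligand and receptor genes past 2-fold in both sexes for which RefSeq (GRCm38.p6) gave a window. The window was cut where a GENCODE exon of the gene begins; the RefSeq start of Fzd1 lies upstream of the GENCODE start given above, so its stretch does not adjoin that start. Sequences read 5′ to 3′ on the strand of the gene, and capitals mark the letters TCAAAG, the reverse complement of the TCF and LEF core CTTTGA. The positions are chr4:137277385-137277488 (plus strand) for Wnt4, chr11:103773925-103774149 (plus strand) for Wnt3 and chr5:4758217-4758466 (minus strand) for Fzd1.
Wnt4: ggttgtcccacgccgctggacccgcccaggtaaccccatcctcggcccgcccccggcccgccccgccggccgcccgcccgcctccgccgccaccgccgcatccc
Wnt3: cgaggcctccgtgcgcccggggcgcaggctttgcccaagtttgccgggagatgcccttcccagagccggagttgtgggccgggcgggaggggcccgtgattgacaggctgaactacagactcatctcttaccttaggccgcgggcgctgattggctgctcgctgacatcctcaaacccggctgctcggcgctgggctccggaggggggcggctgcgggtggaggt
Fzd1: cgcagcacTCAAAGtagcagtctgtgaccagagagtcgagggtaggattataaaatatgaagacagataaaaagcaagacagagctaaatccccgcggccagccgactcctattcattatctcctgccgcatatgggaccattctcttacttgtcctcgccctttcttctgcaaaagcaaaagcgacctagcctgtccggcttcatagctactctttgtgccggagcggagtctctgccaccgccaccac

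Letters for 3 factor families were searched on both strands of the 250 bases before the start, in 32851 windows of all genes and in 28 windows that belong to 25 members. CTTTGA occurred in 4 of the 28 member windows (14.3%), those of Dkk1, Fzd1, Wnt11 and Wnt5b, beside 13.8% of all windows. GGAATG, the core bound by the TEAD partners of Yap1, occurred in 0 of the 28 and in 12.6% of all windows. GACCACCCA, the sequence bound by the Gli factors downstream of Smoothened, occurred in 0 of the 28 and in 0.225% of all windows. No match of these letters overlapped another in the printed stretches. Sfrp1 and Wnt5a are named without a stretch.

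Barcodes were then sorted into states by how many markers of a list they held, with lists that contain no member. Cycling barcodes held 8 or more of 18 cell division genes, early postmitotic barcodes 8 or more of 12 genes of newborn neurons such as Cntn2 and Dcx, and maturing postmitotic barcodes 5 or more of 14 genes of later neurons such as Grin2b and Rbfox3. Cycling barcodes were 29.7% of the library in YSGm, 34.2% in SGm, 23.7% in YSGf and 38.3% in SGf. Early postmitotic barcodes were 22.1% in YSGm, 15.4% in SGm, 25% in YSGf and 14.2% in SGf. Maturing barcodes were 3.49% in YSGm, 2.33% in SGm, 11.7% in YSGf and 2.52% in SGf. Among the cycling, early and maturing gates, cycling barcodes were the deepest, with medians from 9741.5 to 13523 UMIs beside 5480 to 6401 in early postmitotic ones. Maturing barcodes had medians of 9254, 9889.5, 6613 and 10559 UMIs in YSGm, SGm, YSGf and SGf, so those of YSGf were shallower than those of SGf. A gate that counts markers favours deep barcodes. Between 1271 and 2056 barcodes per library lay within 1 marker of the early cut, and between 829 and 1674 within 1 of the maturing cut.

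Some named members were higher after the last division and some were higher in cycling barcodes, while others, such as Wnt4 and Fzd2, followed no common order. Of the 12 named members Wnt3 showed the widest difference: it was at 21.7, 9.43, 24.4 and 9.41 CPM in maturing barcodes of YSGm, SGm, YSGf and SGf, against 4.33, 1.94, 5.41 and 1.55 CPM in cycling ones. Its maturing over cycling ratios were 5.02, 4.87, 4.51 and 6.06, and the interval lay above 1 in all 4 libraries. Early postmitotic barcodes lay between, at 13.6, 7.54, 20.8 and 9.02 CPM. Fzd3 was at 351, 315, 370 and 346 CPM in maturing barcodes against 228, 206, 237 and 201 in cycling ones, a ratio between 1.53 and 1.72. Fzd7 had ratios between 1.61 and 1.82 in the same direction, again with all 4 intervals above 1.

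Sfrp2, Fzd1 and Sfrp1 were higher in cycling than in maturing barcodes. Sfrp2 had 10.3, 5.84, 6.60 and 4.71 CPM in maturing barcodes of YSGm, SGm, YSGf and SGf against 23.6, 13.4, 27.7 and 16.3 CPM in cycling ones, with ratios between 0.238 and 0.437. Fzd1 had maturing over cycling ratios of 0.703 in YSGm, 0.339 in SGm, 0.464 in YSGf and 0.265 in SGf. Sfrp1 differed less, with ratios between 0.701 and 0.83, all 4 intervals below 1, and in SGm and SGf its early postmitotic level, 279 and 266 CPM, was not below the cycling level of 276 and 235 CPM. Wnt4 did not follow one order: its ratio was 1.22 in YSGm (interval 1.06 to 1.4) and between 0.572 and 0.655 in the other 3 libraries. Fzd2 showed no order between maturing and cycling barcodes, since the intervals of all 4 ratios, which ran from 0.836 to 0.982, included 1.

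**Figure D3:**
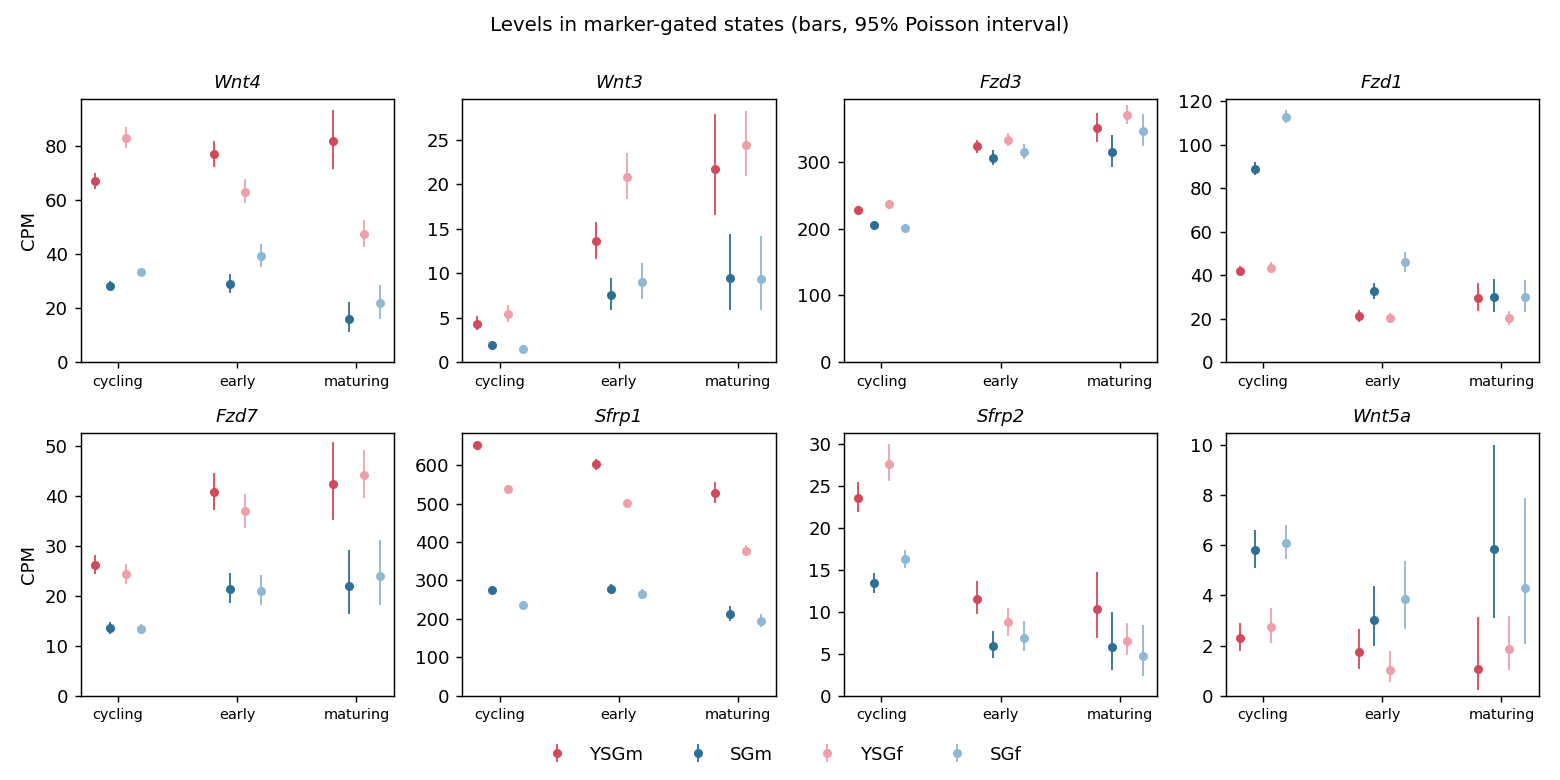
Level of 8 members in CPM in cycling, early and maturing postmitotic barcodes of the 4 libraries, points with 95% Poisson intervals on linear axes from 0. Wnt3 is higher in maturing than in cycling barcodes of every library, and Sfrp2 is highest in cycling barcodes. Fzd1 is apart between genotypes in cycling barcodes (42 and 43.5 CPM in YSGm and YSGf against 88.9 and 113 in SGm and SGf). In maturing ones Fzd1 is at 29.6 and 20.2 CPM against 30.1 and 29.9, and the male ratio there depends on the gate.

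Since YSG libraries held fewer cycling and more postmitotic barcodes, the genotypes were also set against each other inside each state. Sfrp1 was higher in YSG in each of the cycling, early and maturing gates: the fold was 2.36 in males and 2.29 in females in cycling barcodes, 2.16 and 1.88 in early ones, and 2.48 and 1.93 in maturing ones. In the same 3 gates Wnt4 was higher in YSG, with folds of 2.38 and 2.49 in cycling barcodes, 2.66 and 1.60 in early ones, and 5.06 (interval 3.55 to 7.41) and 2.18 (interval 1.62 to 2.98) in maturing ones. Wnt3 had folds of 2.23 and 3.48 in cycling, 1.80 and 2.31 in early, and 2.30 and 2.59 in maturing barcodes, the first of each pair being males. The Wnt3 fold over all barcodes in females, 4.39, was thus above the fold within any of these 3 states. Fzd7 had folds between 1.76 and 1.94 in all 6 comparisons. With gates called on thinned barcodes, which left 12 maturing barcodes in YSGm and 6 in SGm, the male log2 ratios in the maturing gate were -0.83 for Sfrp1, -0.02 for Wnt4 and -5.12 for Wnt3.

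Among the cycling, early and maturing gates, the genotype difference in Fzd1 was widest in cycling barcodes. With gates called on thinned barcodes this order did not hold in males, at a log2 ratio of -1.39 in early postmitotic barcodes. In cycling barcodes Fzd1 had 42 CPM in YSGm against 88.9 in SGm, and 43.5 CPM in YSGf against 113 in SGf, YSG over SG folds of 0.473 (interval 0.443 to 0.505) and 0.385 (interval 0.36 to 0.412). In early postmitotic barcodes it had 21.3 CPM in YSGm against 32.6 in SGm, and 20.3 CPM in YSGf against 46 in SGf. In maturing barcodes it had 29.6 CPM in YSGm against 30.1 in SGm, and 20.2 CPM in YSGf against 29.9 in SGf, with folds of 0.982 (interval 0.703 to 1.38) and 0.674 (interval 0.504 to 0.909). The male value in maturing barcodes depends on the gate: the log2 ratio was -0.03 here, -0.90 with 1 more marker required and -0.61 with the gates as first set.

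Counted state by state among members at 5 CPM or more, 2 of 11 were at least 2-fold higher in YSG in cycling barcodes of males (Wnt4 and Sfrp1; background 2.0%) and 3 of 11 lower (Fzd1, Wnt9a and Wnt5a; background 2.40%). In females 3 of 11 were higher (Wnt4, Sfrp1 and Wnt3; background 2.22%) and 1 lower (Fzd1; background 2.46%). In early postmitotic barcodes of males 2 of 11 were higher (Wnt4 and Sfrp1; background 1.26%) and 0 lower (background 1.34%), and in females 1 of 11 was higher (Wnt3; background 1.97%) and 1 lower (Fzd1; background 1.49%). The Fzd1 log2 ratio there, -1.14, was -0.77 with the gates as first set and -0.73 with gates called on thinned barcodes. In maturing barcodes of males 3 of 12 were higher (Wnt4, Sfrp1 and Wnt3; background 2.37%) and 1 lower (Wnt5a; background 2.13%). In females 3 of 13 were higher (Wnt10a, Wnt4 and Wnt3; background 2.78%) and 0 lower (background 1.41%). With the gates as first set, Wnt4 in maturing females stood at 0.53 in place of 1.09, and Wnt3 in maturing males at 0.84 in place of 1.12. Wnt10a entered that count only through its YSGf level, so its place among the higher genes follows from the filter. It had 45 UMIs (6.06 CPM) in maturing barcodes of YSGf and 3 UMIs (1.28 CPM) in those of SGf. The filter bears the same way on Wnt3 in cycling barcodes of females, where it reached 5 CPM only in YSGf.

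Barcodes in no gate, between 38.6% and 46.7% of a library, held Wnt4 at a higher level than the cycling, early and maturing gates. They had 127 CPM in YSGm against 45.3 in SGm, and 135 CPM in YSGf against 55.4 in SGf, above all 3 gated states in each library. Their median depth, 4746 to 5645.5 UMIs, was below that of cycling barcodes, and whether depth has a part in their being in no gate was not tested.

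Some of the scarce members had a higher CPM in glial or vascular barcodes than in cycling ones, except Wnt7a in YSGf, which had 0 UMIs in both; these were picked after their values were seen. Glial barcodes numbered 38 in YSGm, 77 in SGm, 19 in YSGf and 98 in SGf, and those of YSGf carried oligodendrocyte markers with a median of 0 astroglial ones. Wnt7a, which with Wnt7b signals from neural cells to brain vessels, had 2, 19, 0 and 13 UMIs in the glial barcodes of YSGm, SGm, YSGf and SGf, out of 3, 26, 1 and 19 in the whole libraries. For Dkk3, Fzd6 and Fzd4, most UMIs of each library lay outside the glial or vascular barcodes. Dkk3, a divergent Dickkopf, was at 62.4, 23.1, 39.3 and 5.76 CPM in glial barcodes, on 25, 26, 10 and 13 UMIs, beside 1.11 to 1.69 CPM in cycling ones. Fzd6, a polarity receptor, was at 62, 62.8, 18.8 and 110 CPM in the 4, 23, 10 and 27 vascular and fibroblast barcodes, on 2, 15, 4 and 32 UMIs, beside at most 0.615 CPM in cycling ones. Fzd4 had 31, 29.3, 18.8 and 37.8 CPM in the same vascular and fibroblast barcodes, on 1, 7, 4 and 11 UMIs. In this pooled measure, fewer cells of a type and less RNA per cell cannot be told apart for such genes at the level of the whole library.

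The other genes of the pathway were counted by the same rule, beside 3.93% of all genes past 2-fold in males and 5.56% in females; with lists this short, a count of 0 is near that background. Of 15 co-receptors and other Wnt receptors, 8 were measured in males and 9 in females, and 0 were past 2-fold; their median log2 ratios were 0.17 and 0.09. Lrp6 had 81.1 CPM in YSGm against 69.4 in SGm, and 78.9 CPM in YSGf against 70.2 in SGf. Lrp5 was scarce, at 2.25 CPM in YSGm against 3.21 in SGm, and 2.06 CPM in YSGf against 3.49 in SGf. Of the 8 genes for Wnt secretion and the R-spondins, 2 were measured, Wls and Porcn, with medians of 0.58 and 0.72. Wls, the carrier that brings Wnt proteins to the cell surface, had 59 CPM in YSGm against 37.5 in SGm, and 53.7 CPM in YSGf against 39.5 in SGf. Porcn, the enzyme that attaches the lipid, had 9.79 CPM in YSGm against 6.58 in SGm, and 12.1 CPM in YSGf against 5.53 in SGf, past 2-fold in females at a log2 ratio of 1.01. In cycling, early and maturing barcodes Porcn had 5.58, 18.5 and 24 CPM in YSGf against 3.82, 11.2 and 15.8 in SGf. Of 15 further secreted and membrane inhibitors 6 were measured and 0 were past 2-fold, with medians of 0.11 and -0.23. Of 14 planar cell polarity genes, 10 were measured in males and 11 in females, and 0 were past 2-fold, with medians of 0.25 and 0.19.

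Inside the cell, 25 of 26 genes of the beta-catenin pathway were measured, with medians of 0.03 in males and 0.04 in females. Tcf7l1 and Tcf7l2, DNA-binding partners of beta-catenin, were the 2 past 2-fold in both sexes, and both were lower in YSG, beside 1.58% of all genes. Tcf7l2 had 23.7 CPM in YSGm against 49.2 in SGm, and 19.5 CPM in YSGf against 52.8 in SGf. Tcf7l1, which acts mostly as a repressor, had 7.29 CPM in YSGm against 16 in SGm, and 7.49 CPM in YSGf against 18.3 in SGf. Apc2, a neuronal relative of Apc, was past 2-fold in females, with 28.6 CPM in YSGf against 13.5 in SGf, beside 26.5 CPM in YSGm against 15.9 in SGm. In YSGm, SGm, YSGf and SGf, Apc2 had 47.6, 47.2, 44.1 and 44.2 CPM in early postmitotic barcodes. In the same order it had 61.2, 66.9, 65.6 and 65.9 CPM in maturing barcodes, and 16.4, 7.4, 13.2 and 7.15 CPM in cycling ones. Ctnnb1, which encodes beta-catenin, had 186 CPM in YSGm against 207 in SGm, and 188 CPM in YSGf against 224 in SGf. Like Fzd1, Tcf7l2 was far apart between genotypes in cycling barcodes, at 26.5 CPM in YSGm against 56.4 in SGm, and 23.3 CPM in YSGf against 58.6 in SGf. It was closer in early postmitotic barcodes, at 13 CPM in YSGm against 18.5 in SGm, and 11.5 CPM in YSGf against 16.9 in SGf. In maturing barcodes it had 19.9 CPM in YSGm against 24.3 in SGm, and 9.56 CPM in YSGf against 12.4 in SGf.

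Target genes of beta-catenin had no common direction. Of 18 listed, 9 were measured, with medians of 0.03 in males and -0.01 in females, and Cd44 was past 2-fold. Cd44, a cell surface receptor for hyaluronan that is also made by glia and leukocytes, had 14.1 CPM in YSGm against 33.4 in SGm, and 14.6 CPM in YSGf against 45.4 in SGf. Leukocyte markers ran against it, at 23.7 CPM in YSGm against 4.91 in SGm, and 41.1 CPM in YSGf against 7.99 in SGf. Astroglial markers ran with it, at 839 CPM in YSGm against 972 in SGm, and 735 CPM in YSGf against 915 in SGf, 9 of 12 lower in YSG in each sex. The astroglial list includes Slc1a2 and Sox9, each held by over 15% of barcodes in every library. Oligodendrocyte lineage markers ran against Cd44, at 101 CPM in YSGm against 49.2 in SGm, and 97.9 CPM in YSGf against 46.7 in SGf. Of those 12 markers, 3 were lower in YSG males and 4 in YSG females. Inside cycling barcodes Cd44 had 14.7 CPM in YSGm against 35.2 in SGm, and 14.2 CPM in YSGf against 48.8 in SGf. Axin2, the most general target of the pathway, had 28.8 CPM in YSGm against 23.2 in SGm, and 26.1 CPM in YSGf against 25.4 in SGf, log2 ratios of 0.30 and 0.03. Lef1, both a target and a partner of beta-catenin, was below the level for a count with 36 UMIs in YSGm, 256 in SGm, 51 in YSGf and 378 in SGf, and SG was 5.92-fold above YSG in males (interval 4.16 to 8.64) and 4.98-fold in females (interval 3.71 to 6.81). Sp5, another target below that level and picked after its values were seen, ran the other way, with 185 UMIs in YSGm against 55 in SGm, and 133 in YSGf against 62 in SGf.

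**Figure D4:**
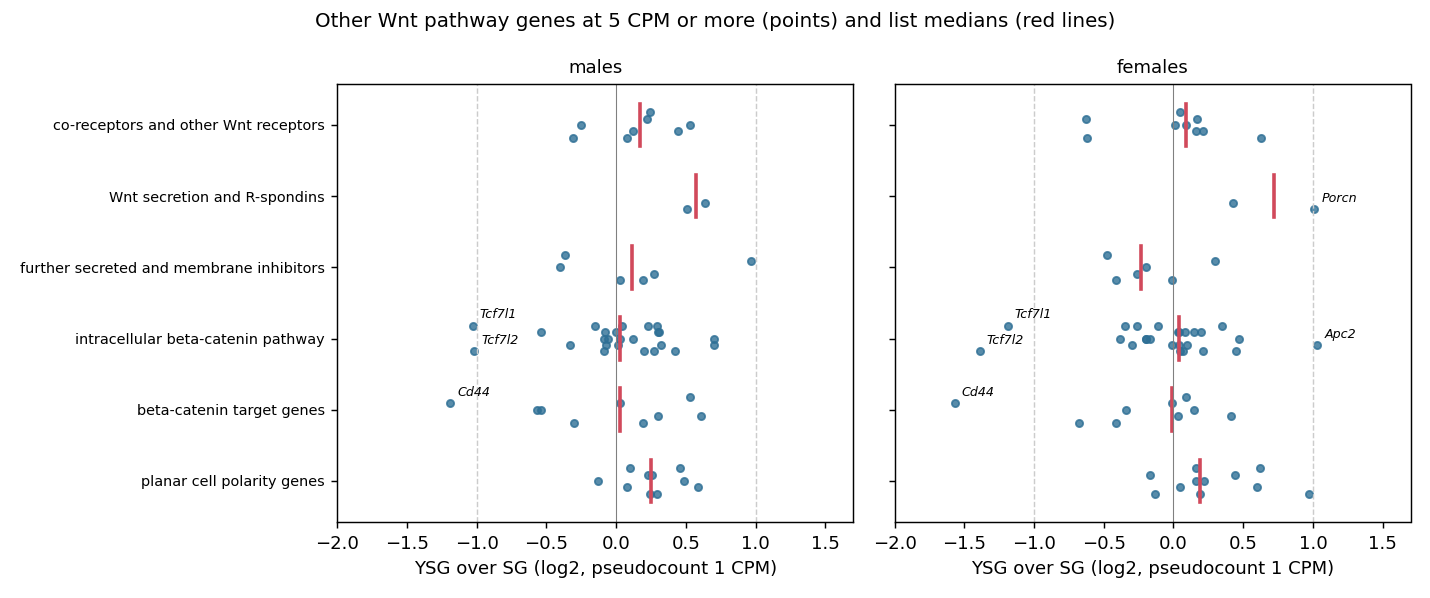
Log2 ratio of YSG over SG, with 1 CPM added, of the other Wnt pathway genes at 5 CPM or more, 1 point per gene and a red line at each list's median, males left and females right; dashed lines mark 2-fold. The medians lie between -0.23 and 0.72, and Tcf7l1, Tcf7l2 and Cd44 lie past 2-fold on the side of lower level in YSG in both sexes.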

How the data were processed

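Tumour cells from 4 libraries were captured with the 10x 3' kit, per the labels' protocols. The deposited matrices hold counts, whole numbers of UMIs per gene and barcode with no normalization; Cell Ranger 5.0.1 made them, per the file headers, and mm10 is the build, per the submitters' processing notes. Its other settings are not given in the labels or headers. Intronic and multimapped reads could change the level of a gene, and how they were treated is not known here. Gene positions were taken from GENCODE M21 (GRCm38), and promoter stretches from RefSeq (GRCm38.p6).

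Barcodes were kept from 500 UMIs and 300 genes upwards, unless over 20% of their UMIs were mitochondrial. Doublets were not removed in the values reported, and an alternative leaves out 407, 450, 372 and 429 likely doublets in YSGm, SGm, YSGf and SGf. UMIs were summed per library and state and divided by all UMIs of the same barcodes. Levels carry exact Poisson intervals, folds exact conditional binomial intervals, and shares exact Clopper-Pearson intervals. For log2 ratios 1 CPM was added to both sides, so ratios of scarce genes come out too small. A gene was measured at 5 CPM or more in at least 1 of the 2 libraries compared. The computation was tested on simulated counts.

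States were gated on the number of distinct markers with a UMI, in the order leukocyte (3), vascular and fibroblast (4), glial (5 astroglial or 4 oligodendrocyte markers), cycling (8), maturing (5) and early (8). Apart from the leukocyte number, these were raised after the files were seen. The numbers and markers as first set put 1004 to 1813 barcodes per library in the glial gate. They left 519 to 1346 in no gate, beside 2780 to 3928 with the gates used. Slc1a2, Sox9 and Pdgfra were left out of the glial gate, since over 15% of barcodes in every library held each. Free RNA or doublets reach the gates: granule markers summed to 800 to 1556 CPM in leukocyte-gated barcodes.

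Members are named at 5 CPM or more in 1 library, or at 20 CPM or more in a state with 100 or more barcodes. Pathway genes are named at 5 CPM or more when past 2-fold the same way in both sexes, together with Axin2, Lef1, Ctnnb1, Lrp5 and Lrp6. Wls, Porcn, Apc2, Shisa2 and Wif1 were named after their values were seen. The members and lists were chosen with earlier results of these data known. Python 3.11.15, numpy 2.4.6, scipy 1.17.1, pandas 2.3.3 and matplotlib 3.10.9 were used. Animals per library, age, zygosity and floxed exons are not given in the labels.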

Additional observations from a re-analysis of the deposited data

Results flagged for a closer look

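In 2 of the 12 named members the genotype ratio had opposite signs in males and females, with counting intervals of the folds that did not overlap between the sexes; whether the sexes differ was not tested, since each value rests on 1 library per genotype. The log2 ratio of Wnt9a, YSG over SG, was -1.03 in males and 0.09 in females. With barcodes thinned to 2000 UMIs the female value was -0.16, which is the same sign as in males. The log2 ratio of Fzd2 was 0.06 in males and -0.48 in females. The male value of Fzd2 was -0.05 after the same thinning, and the interval of its fold, 0.978 to 1.11, included 1.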

How the results depend on the processing

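Each count of members past 2-fold was recomputed under 9 alternatives per sex. The count of 6 in males became 3 when members had to reach 10 CPM, because Wnt3, Wnt5a and Wnt9a do not reach it. The count of 5 in females became 3 with barcodes thinned to 2000 UMIs, where Wnt4 stood at 0.91 and Sfrp1 at 1.0, just under the line before rounding. The other counts lay between 4 and 7, and both were 4 when each barcode weighed the same. Under that weighting Fzd1 in males stood at -0.96 and Wnt4 in females at 0.88. Size factors moved the median of all genes by 0.011 in males and 0.004 in females. Gates called after thinning to 2000 UMIs left 12 maturing barcodes in YSGm and 6 in SGm, and the male log2 ratios there were -0.83 for Sfrp1, -0.02 for Wnt4 and -5.12 for Wnt3, against 1.30, 2.27 and 1.12 as reported; Fzd1 in females became 3.78 on 83 YSGf and 18 SGf barcodes, against -0.55, and Wnt5a in females became 2.39, against -0.87. The gates as first set, an alternative chosen after seeing the data, kept the sign of each state ratio recomputed, but Wnt4 in maturing females (0.53, against 1.09), Wnt3 in maturing males (0.84, against 1.12) and Fzd1 in early females (-0.77, against -1.14) were no longer past 2-fold. With thinned gates Fzd1 in early females (-0.73) and Wnt3 in cycling females (0.91, against 1.33) were under the line too. Doublet removal, the stricter barcode filter and leaving out glial, vascular and leukocyte barcodes left the counts at 6 and 5. No paired analysis was possible because each group is 1 library, and for the same reason no replicate could be left out. The vascular, glial and leukocyte values rest on 4 to 98 barcodes per library.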
